A study of Mus musculus with 16 samples.

Results

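The genes described here encode proteins of the kinetochore and the spindle checkpoint, and the list held 45 of them. A gene was measured where a row of the array annotation carried its symbol and no other, and the row with the highest mean over the 16 arrays stood for it. Of the 45 genes, 42 were matched by symbol and 2 more, Sgol1 and Sgol2a, through their gene identifier under the current names Sgo1 and Sgo2a. Cenpu lay on a row with 2 symbols and was left out of the counts. This gave 44 genes among 30176 genes on 30638 rows with exactly 1 symbol, and each of the 44 had 1 such row.

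RNA from mouse oocytes and preimplantation embryos was hybridized to 16 whole-transcript arrays. They covered 8 stages in 2 backgrounds, from the metaphase II oocyte (MII) through the 1-cell embryo, the 2-cell embryo sampled early and late (early 2-cell and late 2-cell) and the 4-cell and 8-cell embryo to the morula and the blastocyst, with 1 array for each combination. The superovulated background came from females given PMSG (10 IU) and, 48 h later, hCG (10 IU), whereas females of the natural-cycle background received no gonadotropin. All females were B6C3F1 hybrids, stated as 6 to 8 weeks old, and the zygotes of both backgrounds were sired by CD1 males and cultured in pools in KSOM(aa) under 5% CO2 until lysis. Each array held a pool with the RNA equivalent of 20 oocytes or embryos, zona pellucida included. Superovulated MII oocytes came from unmated females and natural-cycle MII oocytes from females paired with vasectomized males, so mating and gonadotropins cannot be told apart at MII.

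The kinetochore is the protein assembly that joins a chromosome's centromere to spindle microtubules. An inner layer sits on nucleosomes that contain the histone variant CENP-A, an outer layer binds the microtubules, and checkpoint proteins that gather on unattached kinetochores hold back anaphase. Oocytes halt at metaphase II with an assembled spindle, and the first cleavages run on maternal RNA and protein until the embryonic genome is transcribed, which in the mouse occurs mainly at the 2-cell stage.

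Values are deposited log2 signals, and a difference of 1 is a doubling. The medians of the arrays were close to each other (4.39 to 4.69). Each signal places a row among all rows measured on that array, and an embryo's total RNA was not measured. The 95th percentile of 1529 olfactory and vomeronasal receptor rows, genes taken to be silent here, ran from 4.73 to 5.27 and served as the silent level. Each array's median lay below its silent level, so close medians do not show that brighter rows share a scale. Centring on brighter rows moved the median of all rows by -0.455 from MII to late 2-cell, as described below. Of the 44 genes, 43 were above the silent level on all 16 arrays. The exception was Nsl1, which read 5.12 on the natural-cycle early 2-cell array. The stage labels were borne by their marker lists: the summed signal of 10 oocyte markers went from 19.56 and 19.54 at MII to 9.93 and 9.25 at blastocyst (log2, superovulated first), and that of 9 blastocyst markers from 9.05 and 8.68 to 17.95 and 18.14. The 9 markers of 2-cell activation peaked at early 2-cell (17.42 and 17.27). At most 2 of 10 sperm markers and 3 of 6 oviduct, blood and immune markers were above the silent level on any array. Cumulus and granulosa markers were above the silent level for 14 of 20 genes on the superovulated MII array and 8 of 20 on the natural one (summed signal 12.98 and 10.88), and their part in the MII values below was not tested. Their sum was 10.47 and 10.11 at 1-cell but 13.21 and 12.58 at 4-cell and 13.3 and 12.74 at 8-cell. At 8-cell only 5 and 4 of the 20 were above the silent level. The sum alone therefore does not single out MII. By the number of these markers above the silent level, the superovulated MII array stood highest of the 16 (14 of 20) and the natural-cycle MII array next (8 of 20). The superovulated morula array had the highest median of the 16, and its blastocyst markers summed to 13.78, below the 14.35 of superovulated 8-cell, whereas the natural-cycle morula array read 15.81. The 2 backgrounds differed most for these genes at 1-cell and at morula, as described with superovulation below.

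In the text that follows, paired values are log2 signals with the superovulated array first and the natural-cycle array second. A difference between stages is the mean of both arrays of the later stage minus that of the earlier one, given ± its standard error from a limma fit of all 16 arrays (n = 2 arrays a stage), and it is called when its Benjamini-Hochberg adjusted p over all 30638 rows is below 0.05. Pools were not labelled as separate collections beyond their stage and background, so p-values measure only the spread between these arrays.

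The 44 genes did not share 1 course. By stage means, 6 were highest at MII, 12 at 1-cell, 4 at early 2-cell, 9 at late 2-cell, 3 at 4-cell, 4 at 8-cell, 2 at morula and 4 at blastocyst. The lowest mean fell at early 2-cell for 13 genes and at blastocyst for 14. The 1-cell stage held the highest array of 11 genes in the superovulated and of 12 in the natural-cycle background. The same counts were not made over all rows, so these numbers describe the 44 genes without a comparison. The range between a gene's highest and lowest stage mean had a median of 2.56 and went from 0.75 for Bub1 to 6.27 for Bub1b, whose products are partners in the spindle checkpoint.

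**Figure D1:**
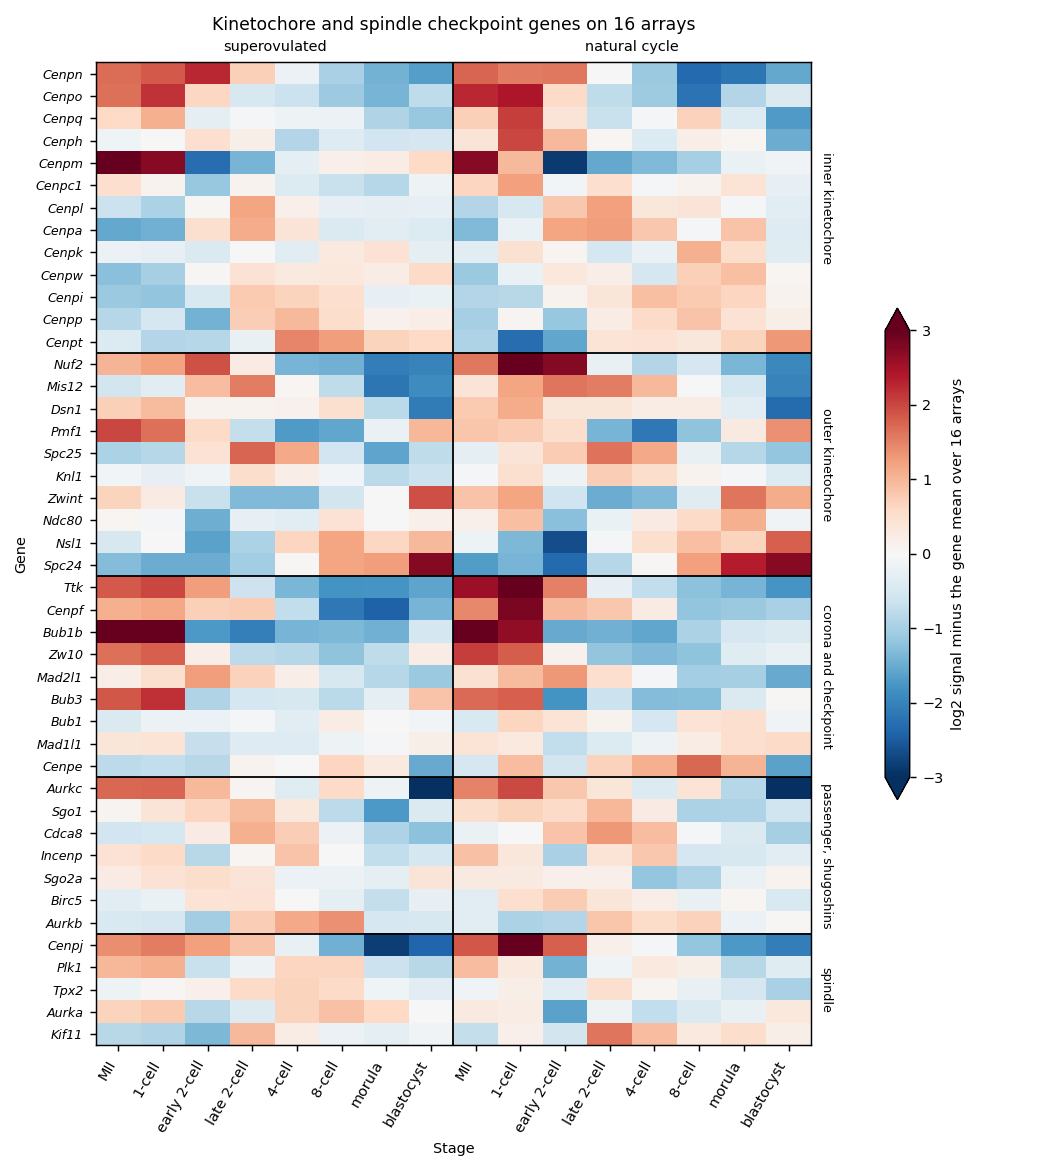
Heat map of 44 genes (rows, in 5 functional groups) on 16 arrays (columns, superovulated left and natural cycle right, stages in order); colour is the log2 signal minus the gene's mean over the 16 arrays, limited to 3 in either direction. Bub1b, Cenpm and Aurkc show the widest ranges (6.27, 5.72 and 6.04), and neighbouring rows of a group differ in the stage at which they are red.

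The promoters of 4 genes are shown because these genes had the largest called falls and rises, among members with a promoter entry, from MII to late 2-cell (Bub1b and Cenpa) and from late 2-cell to blastocyst (Aurkc and Zwint). Each window is 300 bases of GRCm38.p6 from RefSeq, 250 before and 50 after the annotated start, on the plus strand, at chr2:118597961-118598260 (Bub1b), chr5:30666636-30666935 (Cenpa), chr7:6995135-6995434 (Aurkc) and chr10:72654596-72654895 (Zwint). Capitals mark TTTGAA or TTCGAA, the letters of the cell cycle homology region, and CCAAT or its reverse complement ATTGG, the letters of the CCAAT box.
Bub1b: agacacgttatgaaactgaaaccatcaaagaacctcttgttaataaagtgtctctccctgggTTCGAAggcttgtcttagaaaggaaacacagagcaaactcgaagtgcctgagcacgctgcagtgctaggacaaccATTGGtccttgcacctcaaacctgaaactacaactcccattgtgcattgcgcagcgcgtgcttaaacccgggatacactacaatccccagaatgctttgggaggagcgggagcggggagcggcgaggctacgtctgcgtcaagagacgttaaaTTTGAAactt
Cenpa: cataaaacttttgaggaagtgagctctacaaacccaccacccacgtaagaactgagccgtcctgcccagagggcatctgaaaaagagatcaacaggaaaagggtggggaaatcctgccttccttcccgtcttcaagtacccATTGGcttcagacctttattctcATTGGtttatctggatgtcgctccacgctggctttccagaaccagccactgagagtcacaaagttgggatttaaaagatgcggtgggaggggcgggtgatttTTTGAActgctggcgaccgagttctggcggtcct
Aurkc: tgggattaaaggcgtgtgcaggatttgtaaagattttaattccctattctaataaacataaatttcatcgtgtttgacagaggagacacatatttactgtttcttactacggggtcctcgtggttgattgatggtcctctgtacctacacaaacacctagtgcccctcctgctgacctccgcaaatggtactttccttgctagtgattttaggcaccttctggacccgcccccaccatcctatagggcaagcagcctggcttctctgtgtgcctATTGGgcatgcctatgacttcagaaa
Zwint: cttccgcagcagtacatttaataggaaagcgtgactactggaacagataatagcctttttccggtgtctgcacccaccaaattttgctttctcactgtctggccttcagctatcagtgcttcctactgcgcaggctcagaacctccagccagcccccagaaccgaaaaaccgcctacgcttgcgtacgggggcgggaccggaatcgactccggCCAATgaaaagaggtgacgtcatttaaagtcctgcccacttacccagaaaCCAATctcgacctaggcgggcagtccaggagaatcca
Both promoters of genes that changed most before late 2-cell held TTTGAA downstream of the start, at base 41 in Bub1b and base 17 in Cenpa, and Bub1b also held the palindrome TTCGAA at base -188. Bub1b fell and Cenpa rose. The Aurkc window held CCAAT at base 25 on the reverse strand and neither TTTGAA nor TTCGAA, and the Zwint window held CCAAT at bases -37 and 14. In all, 39 of the 44 genes had an entry, with 44 windows, and both strands were searched. TTTGAA or TTCGAA was present in 47.7% of these windows against 19.2% of all 32851 windows of the table, CCAAT in 70.5% against 37.4%, TTCCCGC (letters of an E2F site) in 22.7% against 4.6%, and TTCGCGC in 0.0% against 1.6%. The 20 genes with TTTGAA or TTCGAA included ones that fell early (Bub1b, Bub3, Cenpm, Ttk) and ones that rose (Cenpa, Cenpl, Kif11, Spc25). A match of letters is a description and not a site of binding.

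Inner kinetochore genes were measured for 13 of 14 listed members. Cenpa, which encodes the histone variant that marks the centromere, read 8.71 and 8.92 at MII, 8.81 and 10.06 at 1-cell, 10.74 and 11.44 at early 2-cell, 11.36 and 11.52 at late 2-cell, 10.64 and 11.07 at 4-cell, 9.82 and 10.22 at 8-cell, 9.94 and 11.12 at morula, and 9.85 and 9.86 at blastocyst. Both late 2-cell arrays lay above every MII, 1-cell and blastocyst array. Cenpa rose by 2.63 ± 0.34 from MII to late 2-cell (6.19-fold, adjusted p = 6.63e-05) and fell by 1.59 ± 0.34 from there to blastocyst (adjusted p = 0.00262).

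Cenpm, a subunit of the CENP-H/I/K/M group, ran the other way. It read 12.76 and 11.91 at MII, 11.92 and 10.17 at 1-cell, 6.91 and 6.31 at early 2-cell, 7.79 and 7.66 at late 2-cell, 8.93 and 7.87 at 4-cell, 9.33 and 8.19 at 8-cell, 9.41 and 8.99 at morula, and 9.78 and 9.08 at blastocyst. The early 2-cell arrays were the lowest on each background, and no later array reached a 1-cell value. The fall from 1-cell to early 2-cell was 21.6-fold (log2 -4.43 ± 0.35, adjusted p = 4.07e-06), and the rise from late 2-cell to blastocyst was 3.27-fold (1.71 ± 0.35, adjusted p = 0.00193). Its partners in that group moved less: Cenpi rose by 1.56 ± 0.28 from MII to late 2-cell (adjusted p = 0.000783), and Cenpk, with the smallest range of the inner kinetochore genes (1.00), stayed between 7.44 and 9.05.

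The paired subunits CENP-L and CENP-N, which contact the CENP-A nucleosome, also parted. Cenpl read 5.90 and 5.67 at MII and 7.74 and 7.78 at late 2-cell, a rise of 1.97 ± 0.25 (3.93-fold, adjusted p = 6.27e-05). Cenpn read 14.76 and 14.85 at MII, 13.81 and 13.10 at late 2-cell, and 11.45 and 11.56 at blastocyst. Its fall over the whole course was 9.84-fold (-3.30 ± 0.35, adjusted p = 8.81e-06).

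Among the CENP-O group, Cenpo read 8.78 and 9.38 at MII, 6.64 and 6.37 at late 2-cell, and 6.03 and 4.91 at 8-cell, where the natural-cycle array lay at its silent level (4.91). It fell by 2.58 ± 0.36 from MII to late 2-cell (adjusted p = 0.000131). Cenpp, a partner of Cenpo, read 6.81 and 6.67 at MII, 6.26 and 6.53 at early 2-cell, and 8.40 and 7.89 at late 2-cell. The late 2-cell arrays were above all earlier ones, and the step from early to late 2-cell was a rise of 1.75 ± 0.28 (3.36-fold, adjusted p = 0.00133). Cenpq fell by 1.52 ± 0.39 from 1-cell to early 2-cell (adjusted p = 0.0152).

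The histone-fold pair CENP-T and CENP-W was higher at blastocyst than at MII. Cenpt, whose product recruits the Ndc80 complex, read 9.65 and 9.15 at MII and 10.67 and 11.37 at blastocyst (1.62 ± 0.48, adjusted p = 0.0150). Cenpw read 8.32 and 8.46 at MII and 10.13 and 9.62 at blastocyst (1.49 ± 0.37, adjusted p = 0.00615). Neither rise passed the test after cyclic loess scaling. Of the remaining inner genes, Cenpc1, whose product links the centromere to the outer layer, fell by 1.28 ± 0.34 from 1-cell to early 2-cell (adjusted p = 0.0182). Cenph was called in no comparison, with values from 9.00 to 12.49.

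In the outer kinetochore, the 4 subunits of the microtubule-binding Ndc80 complex had 4 different courses. Ndc80 read 9.99 and 10.07 at MII, 9.88 and 10.83 at 1-cell, 8.46 and 8.68 at early 2-cell, 9.68 and 9.73 at late 2-cell, 9.60 and 10.18 at 4-cell, 10.36 and 10.50 at 8-cell, 9.94 and 10.99 at morula, and 10.08 and 9.83 at blastocyst. The 2 early 2-cell arrays lay below the other 14. Ndc80 fell by 1.78 ± 0.34 into early 2-cell (adjusted p = 0.00231) and rose by 1.13 ± 0.34 into late 2-cell (adjusted p = 0.0349).

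Nuf2 read 10.65 and 11.20 at MII, 10.84 and 12.68 at 1-cell, 11.54 and 12.38 at early 2-cell, 9.88 and 9.41 at late 2-cell, 8.22 and 8.74 at 4-cell, 8.18 and 9.12 at 8-cell, 7.55 and 8.26 at morula, and 7.62 and 7.70 at blastocyst. All arrays up to early 2-cell were above all later ones. It fell 4.97-fold from early to late 2-cell (-2.31 ± 0.43, adjusted p = 0.00294) and 9.63-fold from MII to blastocyst (-3.27 ± 0.43, adjusted p = 5.09e-05).

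Spc24 read 8.52 and 8.15 at MII, 8.34 and 8.43 at 1-cell, 8.34 and 7.48 at early 2-cell, 8.77 and 8.96 at late 2-cell, 9.86 and 9.86 at 4-cell, 11.00 and 11.04 at 8-cell, 11.07 and 12.18 at morula, and 12.58 and 12.54 at blastocyst. From early 2-cell on, the stages followed each other upwards without overlap of their arrays. Its rise from late 2-cell to blastocyst was 12.9-fold (3.69 ± 0.37, adjusted p = 1.18e-05).

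Spc25, whose product pairs with that of Spc24, read 8.75 and 9.40 at MII, 8.85 and 10.08 at 1-cell, 10.14 and 10.46 at early 2-cell, 11.44 and 11.33 at late 2-cell, 10.84 and 10.85 at 4-cell, 9.13 and 9.49 at 8-cell, 8.13 and 8.84 at morula, and 8.95 and 8.55 at blastocyst. The late 2-cell arrays were the highest. Spc25 rose by 2.31 ± 0.36 from MII to late 2-cell (adjusted p = 0.000280) and fell by 2.63 ± 0.36 from there to blastocyst (6.21-fold, adjusted p = 0.000114).

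The 4 genes of the Mis12 complex, which joins the inner to the outer layer, split in the same interval. Mis12 read 11.78 and 11.76 at late 2-cell and 8.36 and 8.24 at blastocyst, a fall of 11.1-fold (-3.47 ± 0.42, adjusted p = 4.25e-05). Dsn1 read 10.21 and 10.45 at late 2-cell, 9.29 and 9.77 at morula, and 7.99 and 7.79 at blastocyst, and fell by 2.44 ± 0.26 (adjusted p = 1.58e-05). Both genes had their lowest signals, or in Mis12 its lowest apart from the superovulated morula array (8.07), at blastocyst.

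Pmf1 and Nsl1, the other Mis12 complex genes, rose over the same stages. Pmf1 read 11.30 and 10.12 at MII, 8.58 and 7.90 at late 2-cell, 7.59 and 7.14 at 4-cell, and 10.29 and 10.67 at blastocyst, so that its 4-cell arrays were the lowest and its blastocyst arrays overlapped those of MII. The rise from late 2-cell to blastocyst was 2.23 ± 0.41 (adjusted p = 0.000995). Nsl1 read 6.18 and 5.12 at early 2-cell, 6.82 and 7.73 at late 2-cell, and 8.74 and 9.56 at blastocyst, a rise of 1.87 ± 0.48 from late 2-cell (adjusted p = 0.00902).

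Zwint, whose product binds KNL1, took a similar shape: it read 9.92 and 10.10 at MII, 7.93 and 7.76 at late 2-cell, 7.93 and 7.93 at 4-cell, 9.27 and 10.85 at morula, and 11.19 and 10.37 at blastocyst. It rose 7.63-fold from late 2-cell to blastocyst (2.93 ± 0.45, adjusted p = 0.000281). Knl1 itself, the scaffold for checkpoint kinases, had the smallest range of the outer genes (1.16) and stayed between 9.29 and 10.83.

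**Figure D2:**
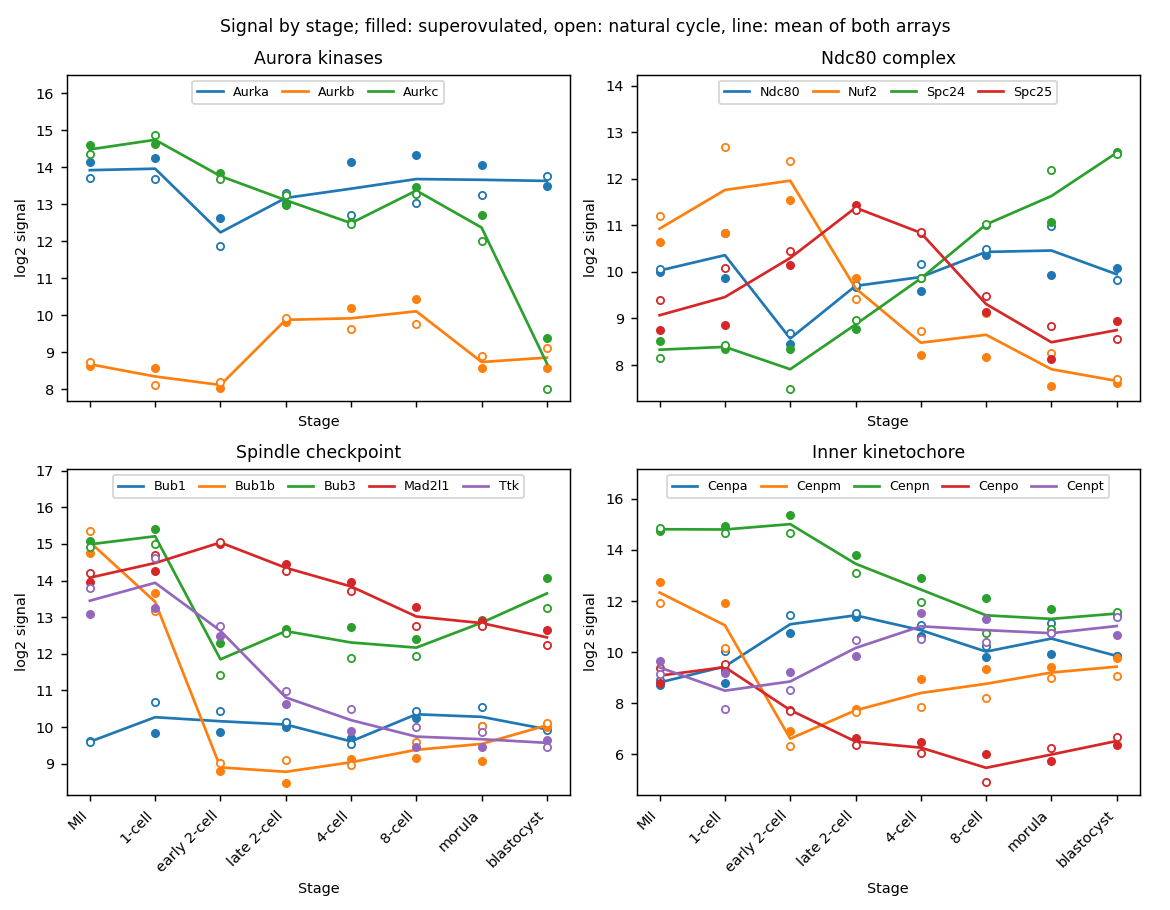
Log2 signal (vertical axis) by stage (horizontal axis) in 4 panels; filled points are superovulated arrays, open points natural-cycle arrays, and lines join the means of both. Aurkc ends at 9.39 and 8.02, Spc24 at 12.58 and 12.54, and Bub1b drops from 13.67 and 13.18 at 1-cell to 8.79 and 9.01 at early 2-cell.

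Among checkpoint genes, Bub1b had the largest range of all 44. Its product, BubR1, is part of the complex that inhibits the anaphase-promoting complex. Bub1b read 14.76 and 15.35 at MII, 13.67 and 13.18 at 1-cell, 8.79 and 9.01 at early 2-cell, 8.48 and 9.09 at late 2-cell, 9.13 and 8.96 at 4-cell, 9.17 and 9.58 at 8-cell, 9.07 and 10.02 at morula, and 10.00 and 10.10 at blastocyst. A gap of over 3 log2 units separated the 4 arrays of MII and 1-cell from the other 12. The fall from MII to late 2-cell was 77.2-fold (-6.27 ± 0.34, adjusted p = 1.54e-07), and the rise from late 2-cell to blastocyst 2.40-fold (1.27 ± 0.34, adjusted p = 0.0108).

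Bub3, the partner that carries BubR1 and BUB1 to kinetochores, read 15.07 and 14.91 at MII, 15.41 and 15.01 at 1-cell, 12.30 and 11.41 at early 2-cell, 12.69 and 12.56 at late 2-cell, 12.72 and 11.90 at 4-cell, 12.41 and 11.93 at 8-cell, 12.92 and 12.78 at morula, and 14.06 and 13.25 at blastocyst. It fell 10.2-fold from 1-cell to early 2-cell (-3.35 ± 0.27, adjusted p = 5.70e-06), and the blastocyst arrays lay above all others after 1-cell. Bub1, a kinase of the same checkpoint, had the smallest range (0.75). Its 16 values lay between 9.53 and 10.69, and it was called in no comparison.

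Ttk, which encodes the kinase MPS1 at the head of the checkpoint, read 13.09 and 13.81 at MII, 12.50 and 12.75 at early 2-cell, 10.62 and 10.99 at late 2-cell, and 9.66 and 9.47 at blastocyst. It fell by 2.64 ± 0.33 from MII to late 2-cell (adjusted p = 5.26e-05) and fell by 3.88 ± 0.33 from MII to blastocyst (14.7-fold, adjusted p = 1.33e-06). Mad2l1, whose product is the checkpoint protein MAD2, read 13.95 and 14.22 at MII, 14.45 and 14.26 at late 2-cell, and 12.65 and 12.24 at blastocyst, and the difference from late 2-cell to blastocyst was called (-1.91 ± 0.27, adjusted p = 0.000162). Mad1l1, which encodes the anchor of MAD2, fell by 0.77 ± 0.21 from MII to late 2-cell (adjusted p = 0.0120) and rose by 0.76 ± 0.21 from there to blastocyst (adjusted p = 0.0128).

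Zw10, a subunit of the corona complex that brings dynein to kinetochores, read 11.57 and 12.00 at MII, 9.14 and 8.74 at late 2-cell, and 10.13 and 9.69 at blastocyst, with a fall of 2.84 ± 0.29 to late 2-cell (adjusted p = 1.28e-05). The corona motor gene Cenpe read 11.74 and 12.47 at morula and 9.94 and 9.85 at blastocyst, which were its 2 lowest arrays (4.62-fold, -2.21 ± 0.38, adjusted p = 0.00277). Cenpf, another corona protein, read 9.04 and 10.02 at 4-cell and 7.64 and 8.58 at 8-cell (-1.42 ± 0.38, adjusted p = 0.0447).

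The chromosomal passenger complex holds an Aurora kinase at the centromere, where it corrects faulty attachments. Aurkc, the form known for its role in germ cells, read 14.60 and 14.36 at MII, 14.62 and 14.86 at 1-cell, 13.84 and 13.68 at early 2-cell, 12.97 and 13.25 at late 2-cell, 12.51 and 12.46 at 4-cell, 13.46 and 13.28 at 8-cell, 12.72 and 12.01 at morula, and 9.39 and 8.02 at blastocyst. The blastocyst arrays lay below the other 14 by more than 2 log2 units. The fall from morula to blastocyst was 12.7-fold (-3.66 ± 0.36, adjusted p = 0.000104), and that from MII to blastocyst 54.8-fold (-5.78 ± 0.36, adjusted p = 1.32e-07).

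Aurkb, the form used in somatic mitosis, read 8.62 and 8.74 at MII, 8.58 and 8.13 at 1-cell, 8.04 and 8.20 at early 2-cell, 9.83 and 9.92 at late 2-cell, 10.21 and 9.62 at 4-cell, 10.45 and 9.76 at 8-cell, 8.57 and 8.90 at morula, and 8.59 and 9.12 at blastocyst. The 6 arrays from late 2-cell to 8-cell lay above the other 10. It rose 3.38-fold from early to late 2-cell (1.76 ± 0.33, adjusted p = 0.00297) and fell 2.03-fold from late 2-cell to blastocyst (-1.02 ± 0.33, adjusted p = 0.0279). The Aurora kinases are close paralogs, and cross-hybridization between them was not tested.

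Aurka, the third Aurora kinase, acts at spindle poles. It read 14.13 and 13.72 at MII, 14.24 and 13.69 at 1-cell, 12.62 and 11.86 at early 2-cell, 13.04 and 13.31 at late 2-cell, 14.13 and 12.72 at 4-cell, 14.33 and 13.03 at 8-cell, 14.07 and 13.24 at morula, and 13.48 and 13.77 at blastocyst. The early 2-cell arrays were the lowest on both backgrounds. The step from 1-cell was a fall of 1.72 ± 0.40 (3.30-fold, adjusted p = 0.00906), and no other stage difference of Aurka was called. Over 23 alternative settings this difference ran from -2.395 to -1.619. It lost its call without the natural-cycle 1-cell array and without the natural-cycle early 2-cell array.

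Among the passengers that are not kinases, Incenp, the scaffold that activates Aurora B and C, read 11.38 and 11.14 at 1-cell, 9.98 and 9.83 at early 2-cell, 10.87 and 11.21 at late 2-cell, 11.66 and 11.61 at 4-cell, and 10.78 and 10.29 at 8-cell, and its fall, rise and later fall were each called (-1.35 ± 0.28, 1.13 ± 0.28 and -1.10 ± 0.28 for the steps into early 2-cell, late 2-cell and 8-cell, adjusted p = 0.00466, 0.0151 and 0.0400). Cdca8, which encodes borealin, read 11.35 and 11.73 at MII, 13.00 and 13.23 at late 2-cell, and 10.71 and 10.94 at blastocyst, so the late 2-cell arrays were above the others of these stages. Its rise was 1.58 ± 0.24 (adjusted p = 0.000236) and its later fall 2.29 ± 0.24 (4.89-fold, adjusted p = 1.47e-05). Birc5, which encodes survivin, had a range of 0.94 with values between 7.23 and 8.70.

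Sgo1, a protector of centromeric cohesin, read 12.21 and 12.14 at 4-cell and 11.10 and 10.94 at 8-cell (-1.16 ± 0.29, adjusted p = 0.0360). Sgo2a, known in mouse oocytes for the same role, was called in no comparison and lay between 8.13 and 9.80.

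Of the genes for spindle assembly, Kif11, the kinesin that pushes spindle poles apart, read 10.23 and 10.33 at MII, 10.16 and 11.21 at 1-cell, 9.72 and 10.51 at early 2-cell, 12.04 and 12.66 at late 2-cell, 11.27 and 11.99 at 4-cell, 10.88 and 11.35 at 8-cell, 10.78 and 11.59 at morula, and 10.94 and 11.24 at blastocyst. Within each background the late 2-cell array was the highest. Kif11 rose 4.71-fold from early to late 2-cell (2.24 ± 0.28, adjusted p = 0.000322).

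Plk1, which encodes a kinase for mitotic entry and attachment, read 15.39 and 14.61 at 1-cell, 13.65 and 12.90 at early 2-cell, 14.17 and 14.20 at late 2-cell, and 14.96 and 14.62 at 4-cell, and it fell by 1.72 ± 0.30 into early 2-cell (adjusted p = 0.00137). Cenpj, a centriole assembly factor, read 11.21 and 11.68 at MII, 10.66 and 9.97 at late 2-cell, 6.98 and 8.08 at morula, and 7.44 and 7.73 at blastocyst. Its arrays of the last 2 stages lay below the rest, and the fall from late 2-cell to blastocyst was 6.64-fold (-2.73 ± 0.42, adjusted p = 0.000278). Tpx2, an activator of Aurora A, had the smallest range of this group (1.17) and fell by 1.17 ± 0.28 from late 2-cell to blastocyst (adjusted p = 0.00550).

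The first net comparison, MII against late 2-cell, asked which of these RNAs differed between the oocyte and the embryo that had begun its own transcription. Of the 44 genes 10 were higher at late 2-cell and 13 lower, against 36.1% of all rows called (19.2% higher and 16.9% lower) and 56.7% of the 15710 rows with a mean above the silent level. The largest rises were those of Cenpa, Spc25, Kif11, Cenpl and Mis12, and the largest falls those of Bub1b, Cenpm, Zw10, Ttk and Cenpo. Inner kinetochore genes gave 5 rises and 3 falls of 13, outer genes 2 and 3 of 10, and corona and checkpoint genes 0 and 5 of 9. Passenger and shugoshin genes gave 2 rises and 1 fall of 7, and spindle genes 1 and 1 of 5. The median difference was -0.10 over the 44 genes and -0.02 over all rows. The split depended on the scaling: it was 6 higher and 22 lower after cyclic loess scaling and 9 and 20 with arrays centred on brighter rows, settings that moved the median of all rows by -0.146 and -0.455. The rises of Cdca8, Cenpw, Aurkb and Mis12 were not called after loess scaling, and that of Aurkb also not after centring.

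From late 2-cell to blastocyst, which shares the late 2-cell arrays with the comparison above, 9 genes rose and 20 fell, against 36.9% of all rows called (19.1% higher and 17.8% lower) and 58.3% of rows above the silent level. Spc24, Zwint, Pmf1, Nsl1 and Cenpm rose most, and Aurkc, Mis12, Cenpj, Spc25 and Dsn1 fell most. All 7 passenger and shugoshin genes had negative differences, 5 of them called, but that of Sgo2a was only -0.03 (stage means 9.56 and 9.53). The outer genes gave 4 rises and 5 falls of 10, corona and checkpoint genes 4 and 4 of 9, inner genes 1 and 3 of 13, and spindle genes 0 and 3 of 5. The median difference was -0.71 over the 44 genes and 0.00 over all rows. This split hardly moved with scaling (9 higher and 21 lower under both alternatives).

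Side by side, Bub1b differed by -6.27 and 1.27 over the first and second interval, Zwint by -2.17 and 2.93, Pmf1 by -2.47 and 2.23, Cenpm by -4.61 and 1.71, and Bub3 by -2.36 and 1.03. Cenpa differed by 2.63 and -1.59, Spc25 by 2.31 and -2.63, Mis12 by 1.61 and -3.47, Cdca8 by 1.58 and -2.29, and Kif11 by 2.07 and -1.26. These 20 differences were all called, and because both intervals use the late 2-cell arrays their opposite signs are no separate evidence.

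**Figure D3:**
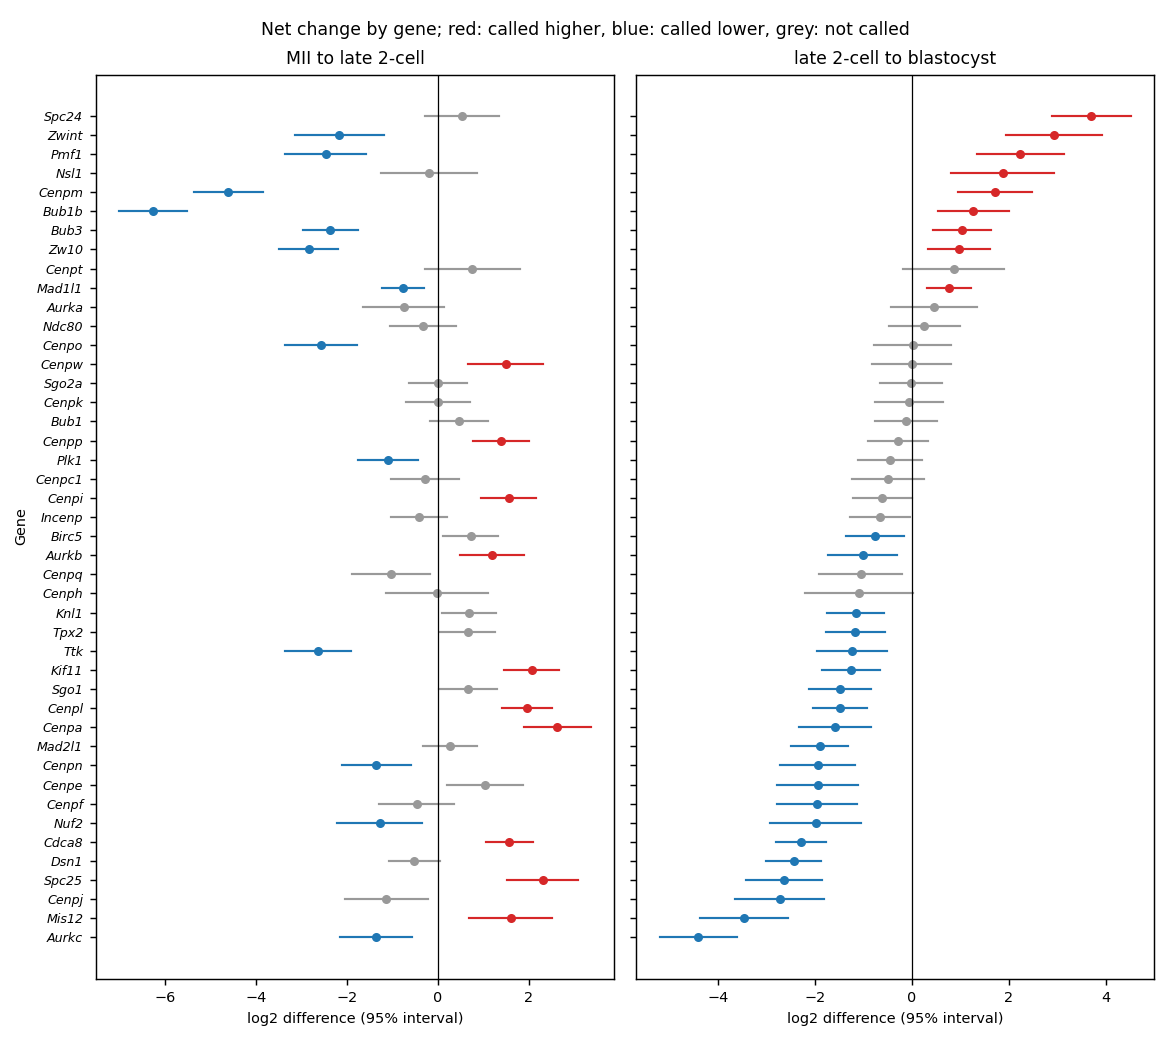
Log2 difference with its 95% interval (horizontal axis) for 44 genes (vertical axis, in the order of the right panel) from MII to late 2-cell (left) and late 2-cell to blastocyst (right); red is called higher, blue called lower and grey not called. Bub1b lies farthest left in the left panel (-6.27) and Aurkc in the right (-4.41), with Spc24 farthest right (3.69).

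Over the whole course from MII to blastocyst 8 genes were higher and 19 lower, with 44.5% of all rows (24.5% higher and 20.1% lower) and 67.7% of rows above the silent level called. Spc24 rose 18.7-fold (4.23 ± 0.37, adjusted p = 1.88e-06), while Aurkc, Bub1b, Ttk, Cenpj and Cenpn fell most. The other rises were those of Nsl1, Cenpt, Cenpw, Cenpp, Cenpa, Cenpi and Kif11. After loess scaling 1 gene was higher (Spc24) and 28 lower, and after centring 4 and 24, with shifts of the median of all rows of -0.176 and -0.480. The rises also depended on single arrays: 3 were called without the natural-cycle MII array (Nsl1, Spc24 and Cenpw), 5 without its superovulated counterpart and 4 when the superovulated blastocyst array was left out.

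From 1-cell to early 2-cell 3 genes rose and 15 fell (40.9% of 44), against 21.5% of all rows (11.4% higher and 10.1% lower) and 35.6% of rows above the silent level. The rises were those of Cenpa (1.66 ± 0.34), Cenpl (1.13 ± 0.25) and Cdca8 (0.80 ± 0.24, adjusted p = 0.0319). The last was not called after loess scaling or centring. None of the 3 was called without the superovulated 1-cell array, and without the natural-cycle early 2-cell array only Cenpa was. Bub1b, Cenpm, Bub3, Ndc80, Plk1 and Aurka fell most, and Cenpo, Zw10, Cenpq, Incenp, Ttk, Cenpc1, Mad1l1, Cenpp and Dsn1 also fell. Without the natural-cycle early 2-cell array 11 genes were called, and without the natural-cycle 1-cell array 13. Loess scaling gave 2 rises and 23 falls.

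From early to late 2-cell 8 genes rose and 6 fell, with 19% of all rows (10.5% higher and 8.56% lower) and 33.5% of rows above the silent level called. Kif11, Aurkb, Cenpp, Nsl1, Incenp, Ndc80, Cenpm and Cenpl rose, and Nuf2, Ttk, Pmf1, Cenpn, Cenpo and Zw10 fell. The falls of Nuf2 and Ttk were -2.31 ± 0.43 and -1.82 ± 0.33 (adjusted p = 0.00294 and 0.00257). Loess scaling gave 3 rises and 9 falls. Without the natural-cycle 4-cell array 5 rises were called. Rises and falls together were also fewer when either early 2-cell array or the natural-cycle late 2-cell array was left out. The rises of Nsl1 and Incenp were not called without the natural-cycle early 2-cell array or without the natural-cycle late 2-cell array.

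Fewer genes passed the test at the other steps. From 4-cell to 8-cell Spc25, Cenpf, Sgo1, Incenp and Cdca8 fell and none rose, with 6.96% of all rows (2.81% higher and 4.15% lower) and 12.6% of rows above the silent level called. This call was fragile: none of the 5 was called without any 1 of the 4-cell or 8-cell arrays, 1 remained called without either MII array and 3 without either early 2-cell array. From morula to blastocyst Aurkc, Cenpe and Dsn1 fell, with 12.1% of all rows (6.54% higher and 5.53% lower) and 20.1% of rows above the silent level called, and these 3 were called under each of the alternatives run. Loess scaling added rises of Pmf1, Bub3, Spc24 and Sgo1, and leaving out the natural-cycle morula array added rises of Spc24 and Sgo1 (5 genes in all).

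No gene was called by limma at 3 steps. After adjustment 0.235% of all rows were called from MII to 1-cell, 2.07% from late 2-cell to 4-cell and 1.82% from 8-cell to morula. An unadjusted p below 0.05 was found for 5 of the 44 from MII to 1-cell, against 6.34% of all rows and 8.56% of rows above the silent level. From late 2-cell to 4-cell it was found for 9, against 16% and 24.8%, and from 8-cell to morula for 13, against 13.3% and 19.7%. A plain analysis of variance called 0 at each step after adjustment. From MII to 1-cell Bub1b differed by -1.63 in the reported fit. It was called lower there with array weights and when only rows above the median level were tested. At the last of these steps Plk1 and Aurkb were called lower without either blastocyst array, and Zwint was called higher without the superovulated morula array.

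The series compared superovulated with natural-cycle material, and over the 8 stages none of the 44 genes was called by limma (0.339% of all rows were). An unadjusted p below 0.05 was found for 18 of the 44, against 16.2% of all rows and 23.9% of rows above the silent level, and plain analysis of variance called 0 after adjustment. The median difference, superovulated minus natural, was -0.17 over the 44 genes and 0.03 over all rows. Cenpm came closest to the threshold. Its superovulated array was the higher one at 8 of 8 stages, and the difference was 0.83 ± 0.17 (adjusted p = 0.0663).

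Bub3 was also higher after superovulation at 8 of 8 stages (0.48 ± 0.14, adjusted p = 0.129). Kif11 (-0.61 ± 0.14, adjusted p = 0.0793), Cenpf (-0.75 ± 0.19, adjusted p = 0.0950), Cenpa (-0.54 ± 0.17, adjusted p = 0.156) and Cdca8 (-0.35 ± 0.12, adjusted p = 0.183) were lower at 8 of 8 stages. The sign was thus shared by all stages in 6 genes of different groups, 2 in one direction and 4 in the other. The share of all rows with 1 sign at 8 of 8 stages was not counted. Whether 6 of 44 is more than other genes show is therefore unknown. Cenpm was called with arrays centred on brighter rows, with array weights and, together with Cenpf, Mis12 and Kif11, when only rows above the median level were tested. Mis12 was called without either blastocyst array.

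The gap between the backgrounds varied with stage. At 1-cell 31 of 44 genes were higher on the natural-cycle array, with a median of -0.47 (superovulated minus natural). Of the 15710 rows above the silent level, 50.9% were higher there, with a median of -0.01. By at least 1 log2 unit, 11 genes were higher on the natural-cycle and 3 on the superovulated 1-cell array (6.7% and 5.9% of rows), with Cenph (10.46 and 12.49) and Cenpm at the ends. At morula 35 of 44 were higher on the natural-cycle array, with a median of -0.51, against 59.4% of rows and a median of -0.13. Here 8 genes were higher by at least 1 log2 unit on the natural-cycle array, Mis12 most of all (8.07 and 9.72), and 0 on the superovulated one (10.0% and 2.8% of rows). The summed blastocyst markers differed the same way between both morula arrays (13.78 and 15.81), and their part in this gap was not tested. At late 2-cell and 4-cell the 44 genes were divided evenly, 22 to 22, with medians of 0.00, while 58.9% and 58.8% of rows were higher on the superovulated array. At blastocyst 25 of the 44 were higher on the superovulated array, near the 58.2% of rows. With 1 array for each stage and background, a single stage's gap has no test.

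Whether the superovulation difference changed between the early stages (MII to early 2-cell) and the later ones was tested as an interaction. No gene was called by limma, plain analysis of variance called 0, and 0% of all rows were called. An unadjusted p below 0.05 was found for 2 of the 44, against 6.22% of all rows and 7.83% of rows above the silent level.

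**Figure D4:**
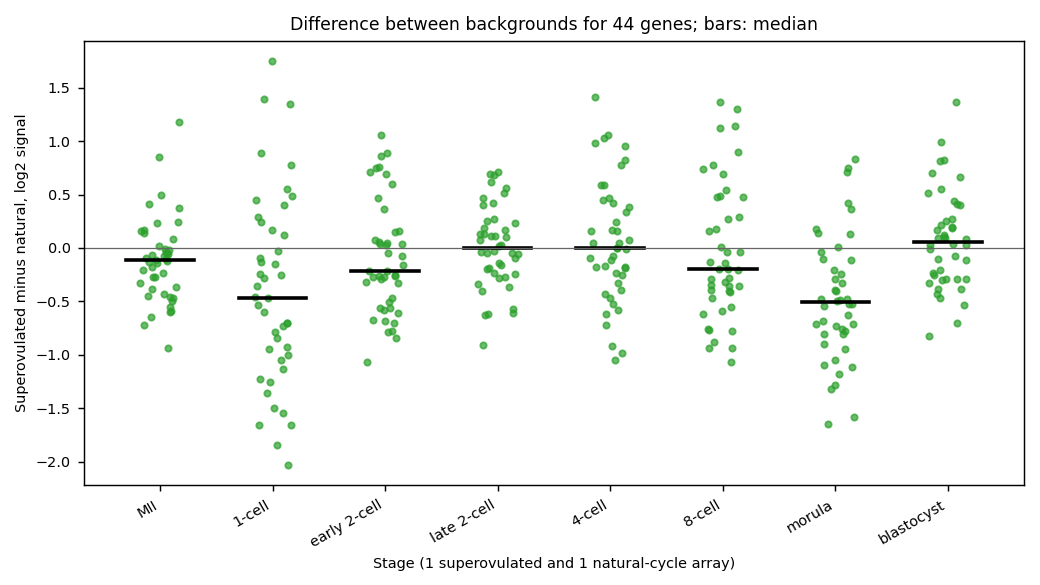
Superovulated minus natural-cycle log2 signal (vertical axis) of 44 genes by stage (horizontal axis); each point is 1 gene and bars are medians. The medians at 1-cell (-0.47) and morula (-0.51) lie lowest, and the 1-cell points spread from -2.02 to 1.76.

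Other genes of chromosome segregation were counted beside them. Of rows above the silent level, 56.7% were called from MII to late 2-cell and 58.3% from late 2-cell to blastocyst. Shares in these comparisons were 87.5% and 50% for condensin, 57.1% and 50% for cohesin, and 50% and 66.7% for the anaphase-promoting complex. They were 66.7% and 83.3% for mitotic cyclins, Cdk1 and anaphase proteins, and 61.1% and 77.8% for other centromere and kinetochore proteins. Of 8 condensin genes, which compact mitotic chromosomes, 1 rose and 4 fell from 1-cell to early 2-cell: Ncaph (-2.73 ± 0.38) and Ncapg (-2.42 ± 0.42) fell most, and Ncapd2 rose (2.25 ± 0.38). At that step 62.5% of the condensin genes were called, against 35.6% of rows above the silent level. From MII to late 2-cell 2 of the 8 rose and 5 fell. Of 14 cohesin genes, 6 rose and 2 fell from MII to late 2-cell, led by Pds5a (3.61 ± 0.24) and Rad21 (2.63 ± 0.23), while Rad21l, a meiotic kleisin, fell from 5.95 on both MII arrays to 4.11 and 3.81 at late 2-cell, where it was not above the silent level. From late 2-cell to blastocyst 2 rose and 5 fell, Smc1b (-2.53 ± 0.25) and Wapl (-2.34 ± 0.32) most.

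The anaphase-promoting complex, the ubiquitin ligase that the checkpoint restrains, was measured through 18 genes. From MII to late 2-cell 4 rose and 5 fell, with Cdc20, its mitotic activator, up by 2.09 ± 0.28 and Fzr1, its other activator, down by 3.04 ± 0.44. From late 2-cell to blastocyst 7 rose and 5 fell, Anapc13 (3.35 ± 0.27) and Cdc23 (2.51 ± 0.36) being the largest rises and Anapc7 (-1.91 ± 0.31) and Anapc15 (-1.89 ± 0.28) the largest falls. Among 12 genes for mitotic cyclins, Cdk1 and anaphase proteins, Cdc25c rose by 4.87 ± 0.38 and Cdk1 by 2.56 ± 0.34 from MII to late 2-cell, with Ccnb2 falling by 2.80 ± 0.26, and from late 2-cell to blastocyst 2 rose and 8 fell. Among these Ccnb3 read 7.94 and 8.37 at late 2-cell and 4.77 and 4.33 at blastocyst, where it was not above the silent level.

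The list nearest to the kinetochore, 18 other centromere and kinetochore proteins, gave 7 rises and 4 falls from MII to late 2-cell, with Trip13 (3.15 ± 0.32) and Ska2 (3.01 ± 0.30) up and Mis18a (-2.38 ± 0.26) and Cdca5 (-1.75 ± 0.54) down. From late 2-cell to blastocyst it gave 2 rises and 12 falls, with Cenps (-3.73 ± 0.41) and Spdl1 (-3.54 ± 0.39) lowest and Zwilch (1.83 ± 0.37) highest. Mis18a, a factor for loading CENP-A, was the only gene of these further lists called for superovulation (0.79 ± 0.13 higher, adjusted p = 0.0468).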

How the data were processed

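The authors deposited log2 signals of 16 Affymetrix mouse transcriptome arrays, processed with Affymetrix Expression Console per the labels. The methods state robust multiarray averaging with signal space transformation for other arrays of the study and do not expressly state it for these, and no source used here gave the genome build behind the annotation. The table held 72688 rows, of which the 30638 with exactly 1 symbol were tested. Values were used as deposited, without a filter on dim rows.

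A linear model with additive effects of stage and stimulation was fitted to every row (limma 3.58.1 under R 4.3.3). It left 7 residual degrees of freedom, which measure how stage differences varied between the backgrounds. Variances were moderated along a trend with mean signal. All 12 comparisons were contrasts of this fit except the interaction, which had a fit of its own. P-values were adjusted by Benjamini and Hochberg over all tested rows. The median standard error was 0.227 for a stage difference and 0.113 for superovulation, and the number of arrays limits the precision. The script was tested on simulated data.

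Named genes were the called members with the largest differences, up to 5 in each direction of a comparison, the Aurora kinases, and the members with the largest and smallest range in each group. Further values of other members were added after they were seen. For the other lists the 2 largest called changes in each direction, or fewer, were given. The members, the lists and the tests were chosen with earlier results of these data known. Alternatives covered scaling, moderation, the rows tested, array weights, the stimulation term and leaving out arrays. Cenpb, Ccnb1, Hjurp and a few further listed names had no row of their own and were not analysed here. RefSeq promoter windows of GRCm38.p6 were searched for 5 motifs.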

Additional observations from a re-analysis of the deposited data

Results flagged for a closer look

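A few genes moved in opposite directions on the 2 backgrounds in the same step, by at least 0.5 log2 units on each. Cenpc1 changed by 0.72 from morula to blastocyst in the superovulated and by -0.66 in the natural-cycle background. Cenph changed by 0.53 (superovulated) and -1.03 (natural) from 1-cell to early 2-cell. Aurka changed by 1.09 and -0.59 from late 2-cell to 4-cell, and by -0.59 and 0.53 from morula to blastocyst. Each value rests on 1 array per stage and background, and these differences were not tested. At 1-cell and morula the 2 backgrounds differed most for these genes.

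Outside the counts, the row with the symbols Cenpu and Mlf1ip (its older name) was above the silent level on 16 arrays, with a lowest signal of 7.0 at superovulated late 2-cell. It read 8.33 and 8.76 at MII, 8.51 and 9.59 at 1-cell, 8.04 and 8.38 at early 2-cell and 7.0 and 7.14 at late 2-cell. Fitted with all rows of the table, it fell from early to late 2-cell (-1.14 ± 0.29, adjusted p = 0.0368). In the same limma fit it also fell from MII to late 2-cell (-1.47 ± 0.29, adjusted p = 0.00377) and from MII to blastocyst (-0.99 ± 0.29, adjusted p = 0.0245).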

How the results depend on the processing

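Of 60 named differences, 37 were called under all 23 alternatives, 23 lost their call under at least 1, and 0 reversed. The total counts for MII to late 2-cell, late 2-cell to blastocyst and MII to blastocyst stayed within 1.5 times under every alternative, but their split by direction moved further under scaling (the first and the last) and, from MII to blastocyst, without 1 array (3 to 8 rises). Testing only rows above the median level called 1 gene from MII to 1-cell, 1 from late 2-cell to 4-cell, 1 from 8-cell to morula and 4 for superovulation. Array weights called 1 from MII to 1-cell, 8 from 4-cell to 8-cell and 1 for superovulation. Centring on brighter rows called 1 from 8-cell to morula and 1 for superovulation, and loess scaling 7 from morula to blastocyst. Testing all rows gave 9 from early to late 2-cell and 0 from 4-cell to 8-cell, and also 0 there with the Cenpu row. Plain analysis of variance gave 2 and the fit without the stimulation term 0 from 4-cell to 8-cell. Leaving out 1 array gave 11 to 21 genes from 1-cell to early 2-cell, 6 to 16 from early to late 2-cell, 0 to 6 from 4-cell to 8-cell, 0 to 2 from 8-cell to morula, 3 to 5 from morula to blastocyst and 0 to 1 for superovulation. The cause of these shifts was not tested. The settings with Cenpu and without Sgo1 and Sgo2a were added after seeing the data. A lower row per gene could not be tried, since each gene had 1 row. The reported fit already paired the arrays, since it held stage and stimulation with 1 array for each combination. The stimulation term joins the 8 arrays of a background. No other pairing was tried. Signals are relative within an array, each stage and background is 1 pool, and the precision of single-stage statements is limited by that number.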
